A study of Homo sapiens with 28 samples.

Results

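Introns and exons of the same genes were compared for the share of reads that carried new RNA, in HEK 293T cells given 100 µM 4-thiouridine (s4U) for 2 h. The genes were those with 50 or more intronic and 50 or more exonic reads in each of 6 labelled libraries. Left out were 3 contigs (chromosome 21, KI270733.1 and GL000220.1). Of 34139 genes with a read in the 18 libraries of the count table, 1820 met this rule. The measure was the converted share, which is the percent of reads with 1 or more T-to-C mismatches in the HISAT-3N alignment.

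HEK 293T is an established human embryonic kidney line, used here as wild type. All 6 labelled libraries that chose the genes came from the handling called IH, which the labels name improved and the series' design text describes as meant to limit losses of labelled RNA and of mismatch-bearing reads. They comprised 2 libraries for each of 3 conversion chemistries: NaIO4 with TFEA at pH 5.2 (called TL), iodoacetamide (SLAM), and OsO4 with NH3 (TUC). Each chemistry also had 1 unlabelled IH library, and a matching set of 2 labelled and 1 unlabelled libraries under the handling called DO, for drop-out. Unlabelled cells received no s4U but their RNA went through the same chemistry. The labels do not say whether libraries of a group came from separate cultures, so p-values measure the spread between these libraries, which may be technical. The files pair no gene symbol with the table's Ensembl identifiers, so genes are given by identifier, their known roles cannot be stated, and the identity of the cells could not be checked by marker genes.

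4-thiouridine is taken up by cells and built into RNA made during the labelling window. The chemistries recode the thiol-bearing base so that reverse transcriptase reads it as C, and a T-to-C mismatch then marks a read from RNA made after the label was added. Introns are cut out of the precursor during or soon after transcription and most are broken down quickly, whereas spliced mRNA builds up and can last for hours. An intron with few converted reads after the label could therefore be one whose RNA was largely made earlier, or one whose intronic reads do not come from a precursor. The share can also vary with the number of T positions in a read and with the alignment. The share alone does not tell these apart. The libraries are bulk, so a lower share in every cell and unlabelled RNA in a fraction of the cells also cannot be told apart.

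Depth was 2129372 to 4707058 reads in the labelled IH libraries, of which 18.4% to 25.7% named no gene. The 1820 genes held 235765 to 762788 intronic and 343714 to 893394 exonic reads per library. Counting error alone put a library's share within 0.173 percentage points of its value or less (95% Wilson). Genes just inside the read minimum, with 50 to 52 reads in their smallest class and library, numbered 133 and had median converted shares of 84.8% for introns and 30.4% for exons. The 158 genes just outside it, with 47 to 49 reads, had medians of 83.7% and 30.5%.

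Introns were converted far more often than exons of the same genes in every labelled IH library. Summed over the genes, 82.1% of intronic and 25.6% of exonic reads were converted in TL replicate 1, and 75.8% and 24.2% in TL replicate 2. The shares were 75.7% and 23.9% in SLAM replicate 1, and 78.3% and 24.6% in SLAM replicate 2. In TUC replicate 1 they were 89.4% and 32.2%, and in TUC replicate 2 85.8% and 28.4%. No exonic share came near an intronic one: the highest exonic value lay more than 40 percentage points below the lowest intronic value. The mean intronic share was 81.2% ± 5.58 and the mean exonic share 26.5% ± 3.23 (SD, n = 6). The difference was 54.7 ± 2.67 percentage points (SD, n = 6), with the intron higher in 6 of 6 libraries (exact sign-flip test over 64 arrangements, two-sided p = 0.0312, the smallest that 6 libraries allow).

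The unlabelled libraries had few mismatches in either class. Their intronic shares were 2.41% in TL, 1.76% in SLAM and 1.64% in TUC, and their exonic shares were 3.19%, 3.82% and 2.88%. The order was the opposite of that in labelled cells in 3 of 3 libraries, with intronic minus exonic differences of -0.78, -2.07 and -1.24 percentage points. Subtracting each chemistry's unlabelled library moved the labelled difference to 56.1 ± 2.54 percentage points (SD, n = 6).

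**Figure D1:**
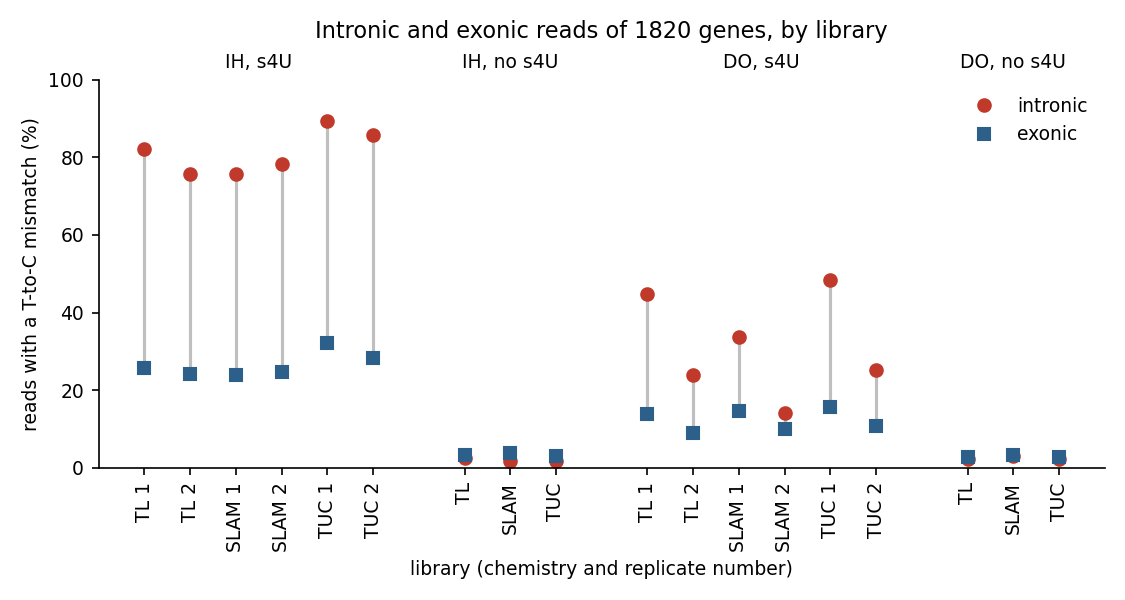
Percent of reads with a T-to-C mismatch over the 1820 genes (vertical axis) in each of 18 libraries (horizontal axis), with a circle for intronic reads, a square for exonic reads and a grey line joining the 2 classes of a library. Intronic circles sit at 75.7% to 89.4% in labelled IH libraries, and both classes lie under 4% without s4U.

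Intronic reads also offered more places for a mismatch. A labelled IH library held 37.1 to 46.1 T positions per intronic read and 34.2 to 38.0 per exonic read. Among reads with exactly 10 T positions, 45.4% ± 5.21 of intronic and 16.1% ± 2.22 of exonic reads were converted (SD, n = 6). Among reads with 30 T positions the shares were 71.6% ± 5.89 and 26.2% ± 2.05, and among reads with 50 they were 85.9% ± 4.96 and 29.2% ± 5.18. Both classes thus rose with the number of T positions, and the gap was present at each number. With reads of 20 to 40 T positions alone the library difference was 47.5 ± 6.38 percentage points (SD, n = 6). Per T position, intronic reads carried 5.62 ± 1.34 more mismatches per 100 T than exonic reads (SD, n = 6).

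A mixture of new and old reads was fitted to the mismatch numbers of each library, with the unlabelled library giving the old component. New reads made up 79.6% to 90.8% of the intronic reads of a library and 20.8% to 29.0% of the exonic reads. The median gene had 90.3% new intronic and 27.3% new exonic reads. Of the 1820 genes, 938 had 90% or more new intronic reads and 27 had less than 50%.

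Per gene, the pattern was nearly general. The median intronic share over genes was 85.0% (5th to 95th percentile 63.2% to 91.3%), and the median exonic share was 29.0% (13.5% to 55.0%). The intron was above the exon in 6 of 6 libraries for 1797 genes (98.7%), and for 1766 genes (97.0%) the lowest intronic library lay above the highest exonic one. The order varied between libraries in 21 genes. It was reversed in 6 of 6 libraries in 2 genes. Each gene's counts of reads with and without a mismatch were tested with edgeR (quasi-likelihood, Benjamini-Hochberg adjusted): introns were higher in 1809 genes (99.4% of those tested), lower in 2 (0.11%) and not different at an adjusted p of 0.05 in 9. The median log2 odds ratio, intron over exon, was 3.77, with a range from -3.25 to 6.85. Over all 11228 genes with at least 1 read of each class in each library, the same test called 9704 higher (86.4%) and 35 lower (0.312%).

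**Figure D2:**
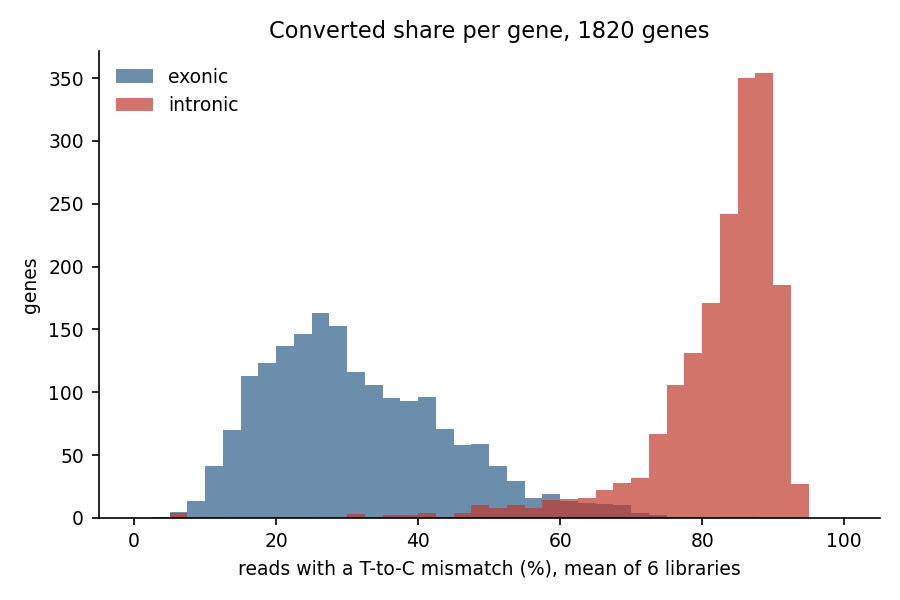
Number of genes (vertical axis) by converted share in steps of 2.5 percentage points (horizontal axis, mean of 6 labelled libraries) for the exonic and intronic reads of 1820 genes. The intronic histogram is gathered near its median of 85.0% with a long tail to low values, and the exonic histogram is broad around 29.0%.

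The intronic shares of most genes fell in a narrow band. The mean intronic share was 80% to 90% in 1117 genes, 90% or more in 212, 70% to 80% in 336, 60% to 70% in 81, and 50% to 60% in 40. Only 34 genes (1.87%) had a mean share under 50%, and 5 of these were under 20%. By contrast 1293 exonic shares lay from 20% to 50% and another 366 under 20%. The spread of exonic shares between genes was thus wider than that of intronic shares.

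Taken by chemistry among the 1820 genes, the mean intronic share of the 2 libraries was under 50% in 38 genes with TL, 51 with SLAM and 21 with TUC, and 20 genes were under 50% with all 3 chemistries. In each of the 6 libraries 16 genes were under 50%. Across the 1820 genes, the Spearman correlation of the intronic share was 0.78 between TL and SLAM, 0.83 between TL and TUC, and 0.79 between SLAM and TUC. These are descriptions across genes, which are not independent replicates and share their T content and annotation in all libraries. The 34 genes with a mean share under 50% had a median exonic share of 16.7%, against 29.0% over all members, and a median of 36.1 T positions per intronic read, against 43.8. Their median ratio of intronic to exonic reads was 0.84, against 1.01. All but 2 of the 34 lay on nuclear contigs. The count of 34 depended on alignment and cutoff: it was 100 when 2 or more mismatches were required, 71 of 1072 genes with HISAT2 D and 70 of 2157 with STAR D.

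To set introns against each other, each gene's intronic odds of conversion were compared with the median gene of the same library, a test chosen after the data had been seen. The intronic reads of a gene were summed, so single introns were not resolved, and the median intron here means the median gene's intronic reads. With edgeR and Benjamini-Hochberg adjustment, 533 genes (29.3%) were below the median intron and 533 (29.3%) above it. The sizes were lopsided. Among called genes, 222 lay at least 1 log2 unit below the median and 74 at least 1 above, while 68 lay at least 2 below and 0 at least 2 above. With a median intronic share of 85.0% and a highest of 94.6%, the share had less room above the median than below it. The lopsided sizes are therefore not read as a trait of the genes. On mismatches per T position the calls were 393 below and 293 above.

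The 5 genes with intronic shares under 20% were ENSG00000213741 and ENSG00000276168 on chromosome 14, ENSG00000265735 and ENSG00000137154 on chromosome 9, and ENSG00000263740 on chromosome 3. The first 3 and ENSG00000263740 follow from the rule for named genes, and ENSG00000137154 was added because its value had been seen. All 5 were under 20% in each of the 6 libraries in the HISAT-3N alignment. Whether their reads marked intronic came from spliced introns was not tested. With HISAT2 under setting VL the means were 22.5% for ENSG00000263740, 21.2% for ENSG00000265735 and just over 20% for ENSG00000137154. With HISAT2 D and ML and every STAR setting these 3 genes stayed under 20%. The highest of those means was 18.1%, for ENSG00000265735 with STAR on about 21 intronic reads per library. Of these alignments, only HISAT2 VL put them above that level. Their exonic shares were higher under VL too. They were 32.3% for ENSG00000263740, 39.6% for ENSG00000265735 and 11.4% for ENSG00000137154, against 17.2%, 7.72% and 7.85% with HISAT-3N.

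ENSG00000213741 had the largest excess of exonic over intronic conversion. Its intronic share was 4.17% and 2.40% with TL, 5.69% and 5.49% with SLAM, and 7.53% and 6.42% with TUC, in replicates 1 and 2. Its exonic share was 42.9% and 30.8% with TL, 32.1% and 26.6% with SLAM, and 36.4% and 33.5% with TUC. The classes did not overlap, and the intron was lower in 6 of 6 libraries. The log2 odds ratio was -3.25 ± 0.22 (SE, edgeR, Benjamini-Hochberg adjusted p = 1.82e-24). Intronic reads of this gene outnumbered exonic reads, with means of 1358 and 192 per library. Without s4U its intronic share was 0.731% on average, so the labelled intronic reads did lie above that background by 4.55 percentage points. Its exonic share without s4U was higher, at 2.33% on average. The log2 odds ratio there was -1.65 and was not called (edgeR adjusted p = 0.109). Reads that the table marks as ambiguous between this gene and another made up 19.8% of its reads, against a median of 0.109% over members.

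ENSG00000263740 was the other gene with a reversed order. Its intronic share was 7.16% and 5.95% with TL, 7.71% and 9.76% with SLAM, and 7.39% and 5.93% with TUC. Its exonic share was 10.2% and 16.5%, 20.3% and 19.2%, and 20.6% and 16.2% in the same libraries. The exonic values were above the intronic values throughout, with the narrowest gap in TL replicate 1. The log2 odds ratio was -1.37 ± 0.21 (SE, edgeR, adjusted p = 3.07e-09). Without s4U the order was the same, with 4.43% intronic and 9.80% exonic reads carrying a mismatch (log2 odds ratio -1.21, edgeR adjusted p = 0.0194). The reversed order was thus also present in unlabelled cells. It remained after subtraction of the unlabelled library, at 2.89 percentage points for introns and 7.36 for exons (log2 odds ratio -1.32, edgeR adjusted p = 5.45e-06). With HISAT2 the direction turned under settings D (0.82) and ML (0.98) but was kept under setting VL (-0.72, edgeR adjusted p = 0.000114). With STAR few reads of this gene were marked intronic. The mean was 14.2 to 14.5 per library over the 3 settings against 706 in the HISAT-3N alignment, and the gene was not tested. Its intronic share there was 7.77% to 11.2%, above the exonic 4.13% to 4.27%. ENSG00000265735 had 20.8 to 21.0 intronic reads per library with STAR against 276. Its exonic reads were few there as well, with a mean of 20.2 per library with STAR D against 263.5 with HISAT-3N. For ENSG00000263740 the exonic mean was 525.8 with STAR D against 832.5.

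ENSG00000276168 had the lowest intronic share after subtraction of the unlabelled library, at 1.98 percentage points. Its labelled intronic share was 4.69% to 6.0% with TL, 5.56% and 6.91% with SLAM, and 7.43% and 7.54% with TUC, against 4.37% on average without s4U. Its exonic share was 2.69% to 3.87%, against 2.30% without s4U. Both means were thus within 2 percentage points of background. It was also the most abundant of the 5, with 3416 to 15329 intronic and 5609 to 25717 exonic reads per library. The split between classes was unstable: in TL replicate 2 it had 15329 intronic and 5609 exonic reads, whereas exonic reads were in excess in the other 5 libraries. The log2 odds ratio of 1.08 ± 0.13 (SE, edgeR, adjusted p = 4.26e-12) had a counterpart of 0.93 without s4U (adjusted p = 0.00786), and it was -0.38 to 0.05 in the HISAT2 and STAR alignments.

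ENSG00000265735 had intronic shares of 8.06% and 3.60% with TL, 4.35% and 8.76% with SLAM, and 11.4% and 7.02% with TUC. Its exonic shares were 11.9% and 8.97%, 6.99% and 5.40%, and 6.43% and 6.59%. The classes overlapped, and no difference was called (log2 odds ratio -0.03 ± 0.29, SE, edgeR adjusted p = 0.906), although with HISAT2 VL the exon was called higher (-1.32, edgeR adjusted p = 9.7e-08). Without s4U both were near 4.40% and 4.75%.

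ENSG00000137154 had intronic shares of 9.59% and 10.2% with TL, 8.85% and 14.4% with SLAM, and 11.5% and 14.6% with TUC. Its exonic shares were 6.97% to 9.25%. Here exonic reads were in large excess, with means of 2574 exonic and 300.3 intronic reads per library. The log2 odds ratio was 0.64 ± 0.21 (SE, edgeR, adjusted p = 0.00284), and it lost the call in reads with 20 to 40 T positions (adjusted p = 0.0989) and with HISAT2 D (adjusted p = 0.149). Its unlabelled shares were 3.98% for introns and 3.92% for exons.

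By distance over the 12 shares (intronic and exonic in 6 libraries), the genes most like ENSG00000213741 were ENSG00000263740, at 45.4 percentage points, and ENSG00000232931 on chromosome 2, at 53.5. ENSG00000232931 had intronic shares of 17.0% to 28.9% and exonic shares of 14.1% to 28.9%, which overlapped (log2 odds ratio 0.07 ± 0.22, SE, edgeR adjusted p = 0.736). Its intronic share was nonetheless 18.6 percentage points above the unlabelled library. Neither shared the wide reversed gap of ENSG00000213741.

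**Figure D3:**
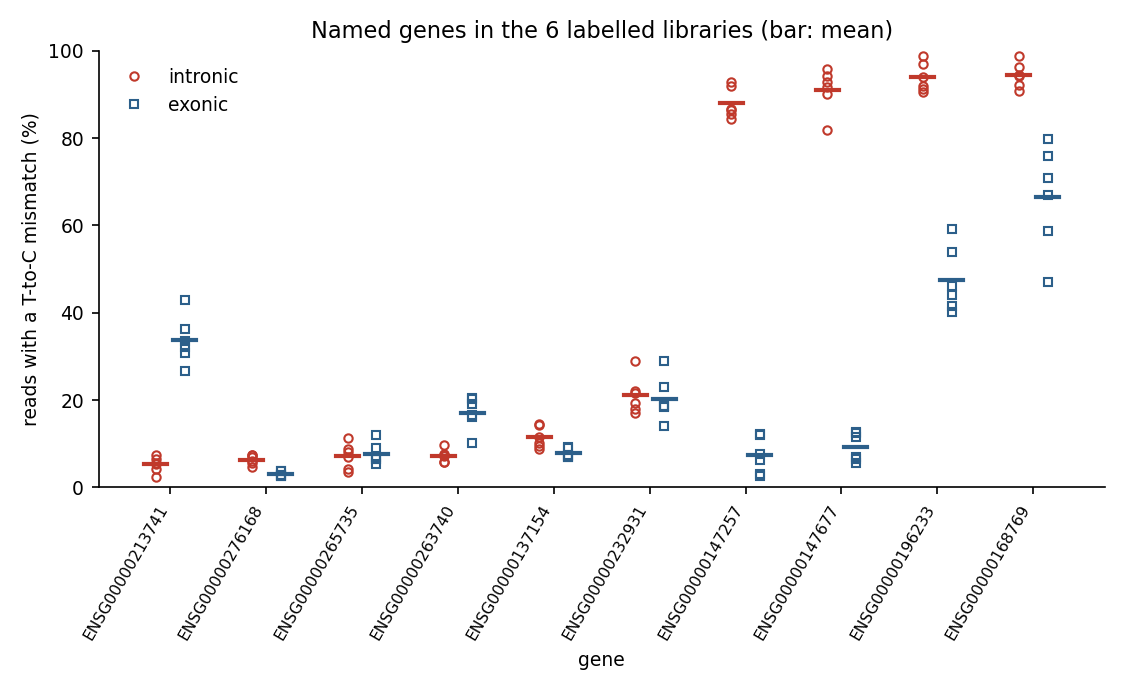
Percent of reads with a T-to-C mismatch (vertical axis) for 10 genes (horizontal axis, by identifier, ordered by mean intronic share), with circles for intronic and squares for exonic reads in each of 6 labelled libraries and bars for means. ENSG00000213741 has squares at 26.6% to 42.9% above circles at 2.40% to 7.53%, and the 4 genes at the right have circles at 81.9% to 98.8%.

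At the other end, the widest gaps combined near-complete intronic conversion with weakly converted exons. ENSG00000147677 on chromosome 8 had the highest log2 odds ratio, 6.85 ± 0.28 (SE, edgeR, adjusted p = 1.13e-37). Its intronic share was 90.1% and 94.2% with TL, 81.9% and 91.7% with SLAM, and 92.8% and 95.8% with TUC, and its exonic share ran from 5.67% to 12.8%. ENSG00000147257 on chromosome X followed at 6.66 ± 0.28 (SE, adjusted p = 4.55e-37), with intronic shares of 84.5% to 92.9% and exonic shares of 2.68% to 12.2%. For comparison, the exons of ENSG00000147257 averaged 1.66% without s4U.

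The highest intronic shares after subtraction of background were those of ENSG00000168769 on chromosome 4 (92.6 percentage points) and ENSG00000196233 on chromosome 10 (91.9). ENSG00000168769 had intronic shares of 90.7% to 98.8% and exonic shares of 47.1% to 79.8%. ENSG00000196233 had intronic shares of 90.7% to 98.8% and exonic shares of 40.1% to 59.3%. Their introns were alike in conversion to those of the previous pair within a few percentage points, while their exons were converted several times as often.

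Introns and exons of a gene varied together only loosely. The Spearman correlation of intronic with exonic share was 0.40 across the 1820 genes, as a description across genes that share T content and library depth. When genes were split into 4 equal groups by exonic share, the median intronic share was 80.3%, 84.6%, 85.4% and 87.7% from the lowest to the highest group. The lowest group held 22 of the 34 genes with an intronic share under 50%. The introns in it were called below the median intron in 51.4% of genes, against 29.3% over all members, and those of the highest group in 14.9%. Genes with 90% or more intronic conversion had a median exonic share of 41.8%.

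The ratio of intronic to exonic reads followed both shares. In 4 equal groups by that ratio, from low to high, the median intronic share was 80.9%, 84.7%, 86.0% and 87.2%, and the median exonic share was 22.4%, 29.1%, 31.6% and 34.2%. The same split by T positions per intronic read gave medians of 80.3%, 85.4%, 86.7% and 86.0%, and the lowest of these held 26 of the 34 genes under 50%. Conversion of introns therefore moved with T content as well as with the exonic share. In reads with 20 to 40 T positions alone, which left 550 genes, 147 genes were below the median intron and 136 above it by edgeR.

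**Figure D4:**
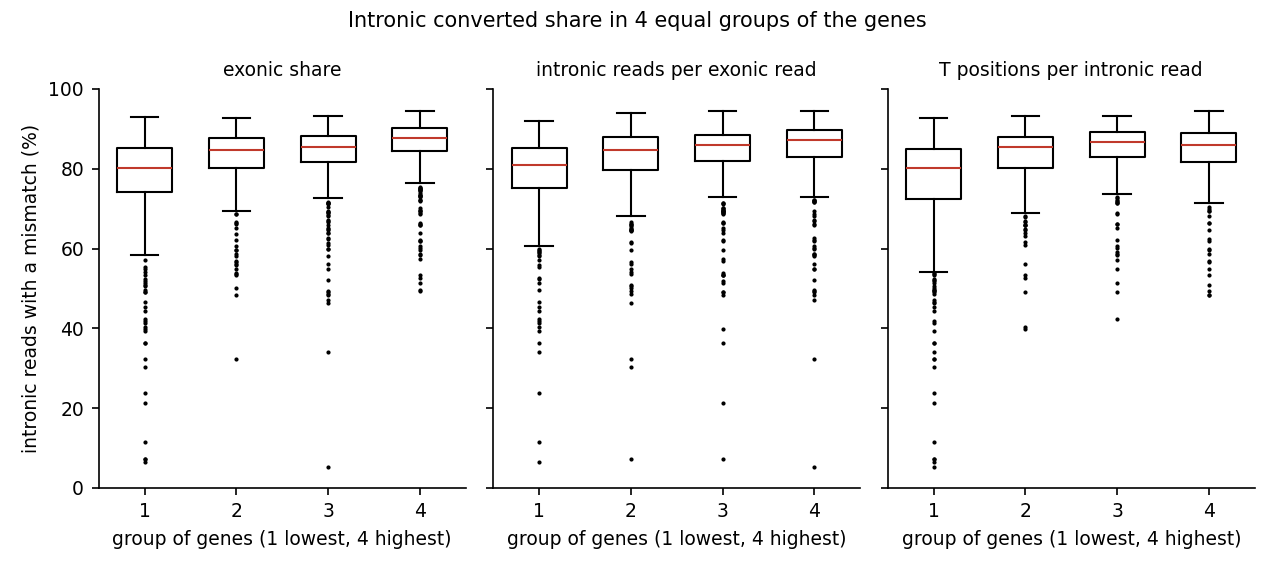
Intronic converted share (vertical axis, percent, mean of 6 labelled libraries) of the 1820 genes in 4 equal groups (horizontal axis, 1 lowest) by exonic share, by intronic reads per exonic read and by T positions per intronic read. Boxes span the middle of the genes with the median as a line, whiskers reach 1.5 times the box height, and points are genes beyond. Group 1 has the lowest median in each panel, at 80.3%, 80.9% and 80.3%.

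Reads marked intronic on the mitochondrial contig were converted less often than those of most nuclear genes. The human mitochondrial genome has no introns, so the mark there cannot mean a spliced intron. Its 5 genes among the members had mean intronic shares of 34.1% to 61.8% and a median of 52.7%, against 85.0% over nuclear contigs. Their median exonic share was 32.1%, against 29.0%. The median difference was 8.14 percentage points, against 53.2 on nuclear contigs. Introns were called higher than exons in 2 of the 5, against 99.4% of all members, and the other 3 were among the 9 genes without a call. All 5 were called below the median intron (edgeR, Benjamini-Hochberg adjusted), against 29.3% of all members. Their unlabelled intronic shares were 2.27% to 11.6%, and 11.6% was the highest among all members.

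**Figure D5:**
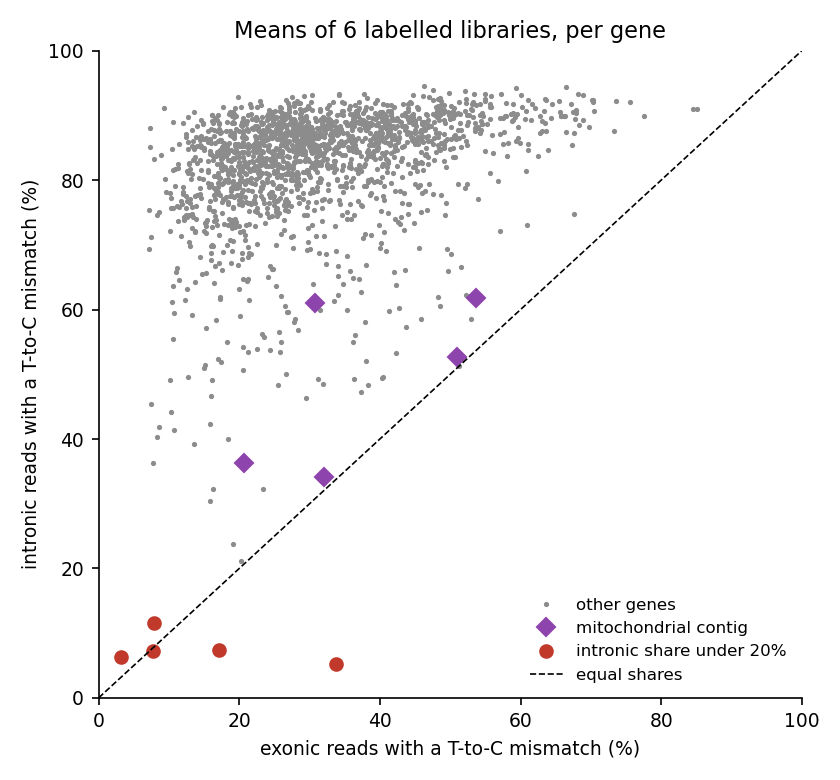
Intronic (vertical axis) against exonic (horizontal axis) converted share in percent, as means of 6 labelled libraries, with 1 point per gene, diamonds for the 5 genes of the mitochondrial contig, large circles for the 5 genes with an intronic share under 20% and a dashed line at equal shares. Nearly all points lie above the line, and the 2 genes with a reversed order in 6 of 6 libraries lie clearly below it.

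Shares of both classes were highest with TUC. Median intronic shares per gene were 83.6% with TL, 80.8% with SLAM and 90.5% with TUC, and median exonic shares were 27.3%, 26.6% and 33.4%. T positions per intronic read averaged 43.7 with TL, 37.5 with SLAM and 45.9 with TUC, and per exonic read 37.6, 34.2 and 38.0. The library difference between introns and exons was 54.0 ± 3.47 percentage points with TL, 52.8 ± 1.37 with SLAM and 57.3 ± 0.201 with TUC (SD, n = 2 each). These means spanned 4.51 percentage points, which the exact one-way permutation test did not separate (p = 0.333 over 90 arrangements, the smallest possible being 0.0667). With 2 or more mismatches required, the differences were 48.1, 48.2 and 57.0 percentage points with TL, SLAM and TUC (exact permutation p = 0.2). Counted per T position they were 4.34, 5.48 and 7.05 mismatches per 100 T (exact permutation p = 0.0667).

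Per gene, the log2 odds ratio varied with chemistry in 24 genes (1.32% of those tested, edgeR F test, lowest adjusted p = 0.0318). In these the gap was smallest with SLAM in 21 and largest with TUC in 22, whereas over all members SLAM had the smallest gap in 51.0% of genes. Their median gaps were 59.1 percentage points with TL, 47.9 with SLAM and 66.0 with TUC. These genes were picked for such a variation in the same libraries, so the spread of these medians follows in part from the choice. Over all members the median gaps were 53.3 percentage points with TL, 50.7 with SLAM and 54.6 with TUC. SLAM libraries also had the fewest T positions per read, and the part of T content in these gaps was not tested. The 24 calls were not stable. There were 87 without TL replicate 1, 2 without SLAM replicate 1, 1 without TUC replicate 1 and 0 without TUC replicate 2. DESeq2 called 6, and the test on mismatches per T position called 0 (edgeR, with 199 genes at an unadjusted p under 0.05).

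Under DO handling fewer of these genes' reads were intronic, and fewer of the intronic reads were converted. Of the reads of these 1820 genes, 39.5% to 51.5% were intronic in labelled IH libraries and 14.8% to 25.8% in labelled DO libraries. A similar drop was present without s4U, from 42.3% to 46.6% under IH to 16.0% to 18.2% under DO. The genes were chosen for their intronic and exonic reads in the labelled IH libraries and not in DO, so this read share, and the comparison of handlings over all 1820 genes, are descriptions that the choice bears on. Under DO the intronic share was 44.9% and 23.8% with TL, 33.6% and 14.0% with SLAM, and 48.4% and 25.3% with TUC, in replicates 1 and 2. The exonic share was 13.8% and 9.01%, 14.6% and 9.89%, and 15.6% and 10.8%. The library numbered 2 was the lower one in both classes with every chemistry. The difference between classes averaged 19.4 ± 10.9 percentage points (SD, n = 6), from 4.09 in SLAM replicate 2 to 32.8 in TUC replicate 1, and no DO library reached the lowest IH value of 51.6. The unlabelled DO libraries had differences of -0.60 with TL, -0.11 with SLAM and -0.52 with TUC. IH exceeded DO by 35.3 percentage points, averaged over chemistries.

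Much of the excess of 35.3 percentage points moved with a few genes. The 5 genes with intronic shares under 20% supplied 1.21% to 5.03% of the members' intronic reads in labelled IH libraries, but 20.7% to 72.1% in labelled DO libraries and 35.4% to 41.6% in unlabelled DO libraries. ENSG00000276168 alone had 165336 intronic reads in SLAM replicate 2 under DO. Without the 5 genes, a choice made after the data had been seen, the DO intronic share was 48.4% ± 10.5 and the DO difference was 34.3 ± 7.67 percentage points (SD, n = 6). The IH difference was then 55.7 ± 2.13, and the excess of IH over DO was 21.4 percentage points, still higher with each chemistry (21.9 with TL, 24.0 with SLAM and 18.4 with TUC). With only the DO libraries numbered 1 and all members, the excess was 27.1 percentage points.

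The test was therefore made over the 69 genes with 50 or more reads of each class in all 12 labelled libraries. This minimum was added after the data had been seen. All members already met it under IH, so the DO libraries, with fewer intronic reads, set which of them passed. The 69 genes include 4 of the 5 mitochondrial genes and are not typical of the members. Their pooled difference was 35.8 ± 9.40 percentage points under IH, against 54.7 over all members, and 4.55 ± 4.06 under DO (SD, n = 6 each). The lowest IH library was at 18.5 and the highest DO library at 10.6, so the groups did not overlap. The excess was 31.2 percentage points, averaged over chemistries (exact permutation within chemistry, 216 arrangements, two-sided p = 0.00926, the smallest possible). All 5 genes with low intronic shares are among the 69, and over the other 64 the difference was 51.7 ± 3.47 under IH and 26.8 ± 5.29 under DO, an excess of 24.9 percentage points.

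Only 69 members had 50 or more reads of each class in all 12 labelled libraries. In these the intron-exon log2 odds ratio was larger under IH in 38 (55.1%) and smaller in 0 (edgeR, Benjamini-Hochberg adjusted p under 0.05). The median intronic share of the 69 was 76.0% under IH and 42.7% under DO, and the median exonic share was 24.6% and 11.5%. The median gap was 50.0 and 25.4 percentage points, and 59 of the 69 had a smaller gap under DO. The 4 mitochondrial genes among them were not called. With a minimum of 20 reads, 560 genes could be tested, of which 257 were larger and 8 smaller under IH.

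Reads marked intronic in ENSG00000213741 and ENSG00000276168 were weakly converted under DO as well. ENSG00000213741 had intronic shares of 0.726% to 1.54% over the 6 labelled DO libraries and exonic shares of 6.06% to 16.3%, and its order was again reversed in 6 of 6. In the unlabelled DO libraries its intronic shares were 0.939% with TL, 1.30% with SLAM and 1.05% with TUC, and its exonic shares were 1.32%, 6.31% and 2.47%. The labelled intronic values under DO thus spanned the unlabelled ones, and the lowest labelled exonic value lay below the highest unlabelled one. The difference in its log2 odds ratio between handlings, 0.50, was not called (edgeR adjusted p = 0.155). ENSG00000276168 had 4.52% to 7.64% intronic and 2.46% to 4.09% exonic conversion under DO, close to its IH values, and 3.02% to 4.74% intronic and 2.52% to 4.81% exonic without s4U.

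Without s4U, mismatches were tested in the same way in the 3 unlabelled IH libraries, over the 1816 members with 50 or more reads of each class in all 3. The exon was higher in 19 genes (1.05%) and the intron in 2 (0.11%) by edgeR with Benjamini-Hochberg adjustment, and the median log2 odds ratio was -0.60. DESeq2 called 0 genes, with 117 genes at an unadjusted p under 0.05. The edgeR calls came to 44 without the TL library, 3 without SLAM and 0 without TUC. Background thus went against the labelled direction in most genes and was small beside it.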

How the data were processed

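Per the labels' protocols, Trizol-extracted, DNase-treated RNA was converted chemically and then sequenced from stranded whole-RNA libraries (a pico-input kit). The authors deposited read counts per library, aligner, setting, contig, gene, transcript, intronic flag, T-to-C number and T number. The submitters' processing notes name cutadapt, HISAT2, STAR, HISAT, Picard, HTSeq, DESeq2 and GRCh38. Their versions and roles, the annotation and the meaning of the setting codes are not given in the sources used here. Of 28 samples, 18 are in this table and the other 10 were not analysed here.

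Reads of HISAT-3N setting D were summed per gene and class. Converted and unconverted counts were fitted with edgeR 4.0.16 (quasi-likelihood, a term per library and class and a conversion term per library), over all genes that met the read minimum, with Benjamini-Hochberg adjustment. Alternatives used DESeq2 1.42.0 and limma 3.58.1. Library shares were compared by exact permutation. The mixture had 2 binomial components per library. On simulated counts with a log2 odds ratio of 1.5, edgeR recovered 100% of 200 changed genes in the labelled comparison and 54% in the chemistry comparison. False calls numbered 8 and 4. The simulation gave all genes the same fixed dispersion, and unchanged genes equal conversion in both classes, unlike these data. It therefore does not give the power or error of the tests here.

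Genes named were those with the 2 lowest and 2 highest log2 odds ratios and subtracted intronic shares, with a mean of 100 or more reads of each class, and the 2 most like the first. The rule asked for more, but identifiers without symbols were kept to 2 per direction. The members, lists and rules were chosen with earlier results of these data known. The 11 gene lists and the cell markers could not be applied without symbols. Replicate numbers did not pair the IH libraries: deviations of same-numbered IH libraries correlated at -0.02 to 0.03. Replicates differed beyond sampling noise (chi-square divided by its degrees of freedom was 2.36 to 6.57) and each counts separately.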

Additional observations from a re-analysis of the deposited data

Results flagged for a closer look

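The intron-exon difference in converted share was higher under IH than under DO by 35.3 percentage points over all members, which met the read minimum through IH libraries alone, and by 21.4 without the 5 genes that supplied 20.7% to 72.1% of the intronic reads in labelled DO libraries. Over the 69 genes with the read minimum in all 12 labelled libraries the excess was 31.2 percentage points (exact permutation p = 0.00926). Which members passed that minimum was set by the DO libraries. Per gene, the handling term was called in 38 of 69 genes by edgeR, all with a larger difference under IH. Between chemistries, the difference was called in 24 genes by edgeR, a count that ranged from 0 to 87 when single libraries were left out.

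Reads marked intronic on the 3 contigs that were left out showed a signal of their own. Their converted share averaged 40.1% ± 5.39 in labelled IH libraries (SD, n = 6), against 4.61% ± 1.51 in unlabelled IH libraries (n = 3). In labelled DO libraries it was 30.4% ± 3.13 (n = 6), against 5.26% ± 0.955 without s4U (n = 3). The labelled IH level was well under the 81.2% of the members, which are genes off these contigs that met the read minimum. Exonic reads on these contigs had shares of 28.7% to 38.5% in labelled IH libraries, below the intronic share in each. No explanation of these values was tested.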

How the results depend on the processing

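The library difference kept its direction under all alternatives run, from 46.6 percentage points (minimum of 200 reads) to 56.9 (STAR), with 5.62 mismatches per 100 T in the count per T position. Leaving out 1 library gave 54.2 to 55.3, with p = 0.0625 by exact sign flips, the smallest that 5 libraries allow. Genes with introns higher and lower numbered 542 and 2 of 550 in reads with 20 to 40 T positions, 1052 and 3 of 1072 with HISAT2 D, 1993 and 8 of 2018 with HISAT2 VL, 2140 and 1 of 2157 with STAR D, 2177 and 1 with STAR ML and 2178 and 1 with STAR VL. They numbered 4615 and 6 of 4669 at a minimum of 20 reads, 485 and 2 of 490 at 100, 71 and 1 of 74 at 200, and 9704 and 35 without a minimum. Leaving out a library gave 1807 to 1809 higher and 2 lower.

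Genes varying with chemistry numbered 24 in the main test, 6 with DESeq2, 0 per T position and 0 to 87 without 1 library. The handling counts were 257 and 8 at a minimum of 20 reads, and 33 to 39 larger and 0 to 1 smaller without 1 library. The handling excess was 32.3 to 38.4 percentage points without 1 library. Chemistry means spanned 3.55 to 5.74 percentage points without 1 library. Unlabelled calls were 0 and 0 with DESeq2, 43 lower at a minimum of 100 reads, and 0 to 2 higher and 0 to 42 lower without 1 library. Against the median intron, 293 were above per T position, and 136 above and 147 below in reads with 20 to 40 T positions, with 478 to 525 above and 499 to 528 below without 1 library. Genes with an intronic share under 50% numbered 100 with 2 or more mismatches and 16 of 550 with 20 to 40 T positions. They numbered 71 and 54 with HISAT2 D and ML, and 70, 69 and 69 with STAR D, ML and VL. At minimums of 20, 100 and 200 reads they numbered 116, 10 and 4, and without 1 library 26 to 39.

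With the replicate number as a block, the labelled test called 1809 and 2, the chemistry test 0, the handling test 38, and the library excess by handling was 35.3 percentage points. The block was not run for the labelled library difference, whose mean it leaves unchanged by construction. The numbers did not pair the IH libraries, so the loss of the chemistry calls is not read as a weaker effect. For handling, 6 of 15 correlations of per-gene deviations were above 0.1 (range -0.17 to 0.28), which does not meet the rule for pairing, yet under DO the library numbered 2 was the lower one in both classes with all 3 chemistries. Whether the numbers mark a shared step under DO was not tested.

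ENSG00000263740 turned to 0.82 and 0.98 with HISAT2 D and ML and stayed at -0.72 with HISAT2 VL. ENSG00000276168 turned to -0.22 and -0.38 with HISAT2 D and VL, and ENSG00000265735 moved from -0.03 to -1.32 with HISAT2 VL. The cause was not tested. Under DO the members' intronic reads numbered 64739 to 302282 per library and 69 genes could be tested, members having been chosen on IH libraries. The split of reads between classes rests on an annotation that is not given.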

Other observations

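Among nuclear chromosomes, the median intronic converted share per gene was lowest on chromosome 19, at 79.6% over 59 genes, where 50.8% of genes were called below the median intron (edgeR, Benjamini-Hochberg adjusted) against 29.3% over all members. Its genes also had a median of 37.5 T positions per intronic read, against 43.8 over all members. It was highest on chromosome 8, at 87.0% over 44 genes, with 11.4% called below and 45.1 T positions per intronic read. The part of T content in these values was not tested. Genes under 50% made up 8.54% of the 82 on chromosome 9 (7 genes) and 7.14% of the 56 on chromosome 14 (4 genes), against 1.87% of all members. These were the highest values among nuclear chromosomes and rest on few genes. ENSG00000265735 and ENSG00000137154 are among the 7, and ENSG00000213741 and ENSG00000276168 among the 4. Genes with 10% or more of their reads marked ambiguous numbered 71, had a median intronic share of 82.9%, and 42.3% of them were called below the median intron.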
